A study of Mus musculus with 54 samples.

Results

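The genes of the interleukin-1 (IL-1) family and of the inflammasome were followed in primary mouse microglia given alpha-synuclein (aSyn) and in microglia that were not. Their 9 members are the ligands Il1a, Il1b and Il18, the receptor antagonist Il1rn, the sensor Nlrp3, the adaptor Pycard, the caspases Casp1 and Casp4, and the pore protein gene Gsdmd. They were chosen by gene symbol. All 9 are among the 16632 genes of the count table, and all 9 passed the filter on low counts that left 13169 genes for testing.

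Microglia came from neonatal C57BL/6 brains, with the cells of 2 brains pooled in each flask, and were shaken off the astrocyte layer after growth in medium with conditioned supernatant of L929 cells. Donor cells received 1 µM Atto-488-labelled aSyn for 14 h. Acceptor cells received a violet cell dye and no aSyn, and both populations were then mixed and later sorted apart by flow cytometry. The labels give 14 groups, which are untreated cells, cells given aSyn alone, and donors and acceptors at 0, 15, 30, 60, 150 and 300 min of co-culture. The 0 min groups are named in the labels while the treatment protocol lists co-cultures from 15 to 300 min, and whether untreated cells and cells given aSyn alone were sorted is not given in the sources used here. Replicate numbers were read as experiment numbers, so that libraries with 1 number are treated as 1 experiment. Untreated cells had 6 libraries in 4 experiments, and the pairs numbered 2 and 4 were summed, so 54 libraries gave 52 units. Experiment 4 has no 0 min group, experiment 2 no donors at 60 min and experiment 3 no acceptors at 300 min, and all other groups have all 4 experiments. The p-values measure the spread between these units, since the labels do not say which experiments used separate animals.

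IL-1α and IL-1β are cytokines that start inflammation through 1 shared receptor, and the antagonist encoded by Il1rn occupies that receptor without signalling. IL-1β and IL-18 are made as inactive precursors and are cut by caspase-1 in the inflammasome, a complex in which a sensor such as NLRP3 binds the adaptor ASC, the product of Pycard. Caspase-4 (called caspase-11 in mice) responds to bacterial lipopolysaccharide in the cytosol and cuts gasdermin D, whose fragments form pores in the membrane. In microglia, transcription of Il1b and Nlrp3 is the priming step, and it precedes cleavage. RNA counts cover that step and not cleavage, pore formation or release.

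Library totals were between 7807389 and 15537493 counts, with a median of 13036175.5. Values are given as CPM, the count scaled to a common library size. A count of 3 corresponded to between 0.113 and 0.387 CPM, and intervals from counts cover counting error only. The cells carried the microglia markers, all 10 of 10 being in the table, with a summed level of 2655 to 12453 CPM. Experiment 4 stood apart. Its facility numbers form a series apart from that of the other 3 experiments, the ribosomal transcript Rn45s took a mean of 18.2% of its counts against 6.60% elsewhere, and its summed microglia markers were 2655 to 3141 CPM in cells given aSyn and 4386 to 5418 CPM in the others, against 7166 to 12453 CPM in experiments 1 to 3. Of the markers of other cell types, the 8 astrocyte genes summed to 7.59 to 138.5 CPM and the 4 oligodendrocyte genes to 54.6 to 431 CPM, while neuron, fibroblast, endothelium and lymphocyte lists reached at most 4.97, 24.5, 4.01 and 0.428 CPM. Of 4 neutrophil markers 1 is in the table, and it reached 8.46 CPM at most. In bulk samples, a change in the share of cells that express a gene and a change in RNA per cell cannot be told apart.

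The members lie on 5 chromosomes of the mouse genome (GRCm38, the build named mm10 in the submitters' processing notes, with GENCODE M21 annotation). Il1a (chr2:129299610-129309972, minus strand) and Il1b (chr2:129364570-129371139, minus strand) are neighbours on chromosome 2, which also carries Il1rn (chr2:24336853-24351494, plus strand). Casp1 (chr9:5298517-5307265, plus strand) and Casp4 (chr9:5308828-5336783, plus strand) are adjacent on chromosome 9, with Il18 (chr9:50554827-50581840, plus strand) farther along. Nlrp3 lies at chr11:59541568-59566956 and Gsdmd at chr15:75862327-75867408, both on the plus strand, and Pycard at chr7:127989708-127993867 on the minus strand. Exons of Il1b overlap the antisense gene Il1bos, exons of Il1a overlap Gm14023 and exons of Pycard overlap Gm45205, each on the opposite strand. Whether the counting used strand is not given in the sources used here, so reads of Il1a, Il1b and Pycard cannot be told apart from reads of those partners.

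Promoter windows from RefSeq (GRCm38.p6, 250 bases before to 50 after an annotated start) matched 8 of the 9 members. The windows of Casp4, Il1a, Il1b and Il1rn, the 4 members with the highest log2 difference between aSyn alone and untreated cells, are shown 5′ to 3′ on the gene's strand, at the first annotated start. Capitals mark matches, on either strand, to the kappaB, AP-1 (TGANTCA), PU.1 core (GAGGAA), C/EBP (TTGCNNAA) and ISRE motifs. These are binding motifs of factors known in myeloid cells. The windows cover chr9:5308599-5308898 for Casp4, chr2:129309923-129310222 for Il1a, chr2:129371090-129371389 for Il1b and chr2:24336610-24336909 for Il1rn.
Casp4: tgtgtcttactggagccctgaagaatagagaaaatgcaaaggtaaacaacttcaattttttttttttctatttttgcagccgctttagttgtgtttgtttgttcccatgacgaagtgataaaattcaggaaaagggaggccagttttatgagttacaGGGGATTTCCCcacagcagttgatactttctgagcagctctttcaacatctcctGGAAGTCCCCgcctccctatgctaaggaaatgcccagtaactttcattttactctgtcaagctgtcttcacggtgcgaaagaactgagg
Il1a: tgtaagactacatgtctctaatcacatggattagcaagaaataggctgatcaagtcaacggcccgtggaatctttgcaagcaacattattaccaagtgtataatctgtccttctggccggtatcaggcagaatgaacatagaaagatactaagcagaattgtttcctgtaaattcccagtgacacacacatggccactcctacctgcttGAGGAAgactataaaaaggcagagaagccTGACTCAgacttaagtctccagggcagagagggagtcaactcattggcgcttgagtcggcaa
Il1b: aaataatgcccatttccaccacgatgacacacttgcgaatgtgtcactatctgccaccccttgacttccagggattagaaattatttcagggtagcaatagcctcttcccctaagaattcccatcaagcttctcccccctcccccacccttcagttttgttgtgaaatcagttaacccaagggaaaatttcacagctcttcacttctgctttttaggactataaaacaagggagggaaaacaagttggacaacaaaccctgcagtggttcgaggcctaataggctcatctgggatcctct
Il1rn: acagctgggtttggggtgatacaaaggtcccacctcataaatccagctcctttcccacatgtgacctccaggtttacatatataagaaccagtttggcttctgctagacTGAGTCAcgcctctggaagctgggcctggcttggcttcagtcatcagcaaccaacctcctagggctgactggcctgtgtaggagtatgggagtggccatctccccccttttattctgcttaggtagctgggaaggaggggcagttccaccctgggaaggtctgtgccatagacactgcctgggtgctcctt
The Casp4 window holds 3 kappaB matches, of which the pair GGGGATTTCC (bases -93 to -84 from the start) and GGGATTTCCC (-92 to -83) overlap and GGAAGTCCCC lies at -39 to -30. A kappaB match is found in 8.46% of 32817 promoter windows of this length. The Il1a window holds an AP-1 match at -12 to -6 and a PU.1 core match at -41 to -36, and the Il1rn window an AP-1 match at -141 to -135. AP-1 and PU.1 core matches are found in 7.81% and 28.3% of all windows. None of the 5 motifs has a match in the Il1b window, which says only that these letters are not in its 300 bases. Nlrp3 has a kappaB match (GGGAACCCCC, -186 to -177) at its first start.

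The first comparison asks what aSyn alone changed, against untreated cells. The antagonist Il1rn and the caspase Casp4 rose, Il1a, Il1b, Nlrp3 and Casp1 were higher in every experiment without passing the test, and Pycard was lower in every experiment. For Il1a, Il1b and Il1rn the difference was largest in experiment 4, while Il18 and Gsdmd were higher in 3 of 4 experiments. edgeR's quasi-likelihood test with Benjamini-Hochberg adjustment over all genes called 2 of the 9 members, both higher, and 329 of 13169 genes, which is 2.5% of those tested. The median log2 fold change was 0.90 over the members and -0.04 over all genes.

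Il1b, the secreted ligand, was at 14.0, 65.3, 13.6 and 23.3 CPM in the untreated cells of experiments 1, 2, 3 and 4. With aSyn it was at 99.7, 301, 195 and 2619 CPM. The groups did not overlap, as was the case for 4 members (Il1b, Il1rn, Nlrp3 and Casp4) and for 8.1% of all genes in either direction. The log2 fold change reached 4.78, with an SE of 1.40 and an edgeR adjusted p of 0.0553. DESeq2 called Il1b in addition to Il1rn and Casp4, with an adjusted p of 0.00168 for Il1b. Without experiment 4 the log2 fold change of Il1b was 2.67 (SE 0.74, edgeR adjusted p 0.0493), a smaller fold just under the threshold. It did not pass without experiment 1, 2 or 3 (edgeR adjusted p 0.0873, 0.106 and 0.265).

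Il1rn was at 25.4, 154, 57.6 and 51.0 CPM in untreated cells and at 248.6, 328, 383 and 2461 CPM with aSyn, in the same order of experiments. Here too the groups did not overlap. The rise in log2 CPM was 3.57 (SE 0.92, edgeR adjusted p 0.0256). Leaving out experiment 4 gave 2.02 (edgeR adjusted p 0.0134). It did not pass without experiment 1, 2 or 3 (edgeR adjusted p 0.0812, 0.0502 and 0.150). The antagonist and the ligand it opposes both stood highest in experiment 4.

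Il1a, the ligand that acts without cleavage by caspase-1, was near the detection limit in most units. Untreated cells held 0, 5, 3 and 16 counts in experiments 1 to 4, the last in 2 summed libraries with 1 and 15 counts. Cells given aSyn held 7, 20 and 16 counts in experiments 1, 2 and 3 and 1378 counts, or 120.3 CPM, in experiment 4. The groups overlapped on the CPM scale, although aSyn was higher in 4 of 4 pairs, and the log2 fold change, 6.57 with an SE of 2.52 (edgeR adjusted p 0.155), rests on experiment 4, without which it was 2.62 (SE 1.41, edgeR adjusted p 0.393).

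Il18, the ligand that is expressed constitutively in many myeloid cells, was at 9.39, 30.3, 9.77 and 10.7 CPM in untreated cells and at 12.7, 14.6, 12.1 and 29.2 CPM with aSyn. It was higher in 3 of 4 experiments and lower in experiment 2, and the groups overlapped. The log2 difference was 0.18 (SE 0.38, edgeR adjusted p 0.854) and turned to -0.33 without experiment 4.

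**Figure D1:**
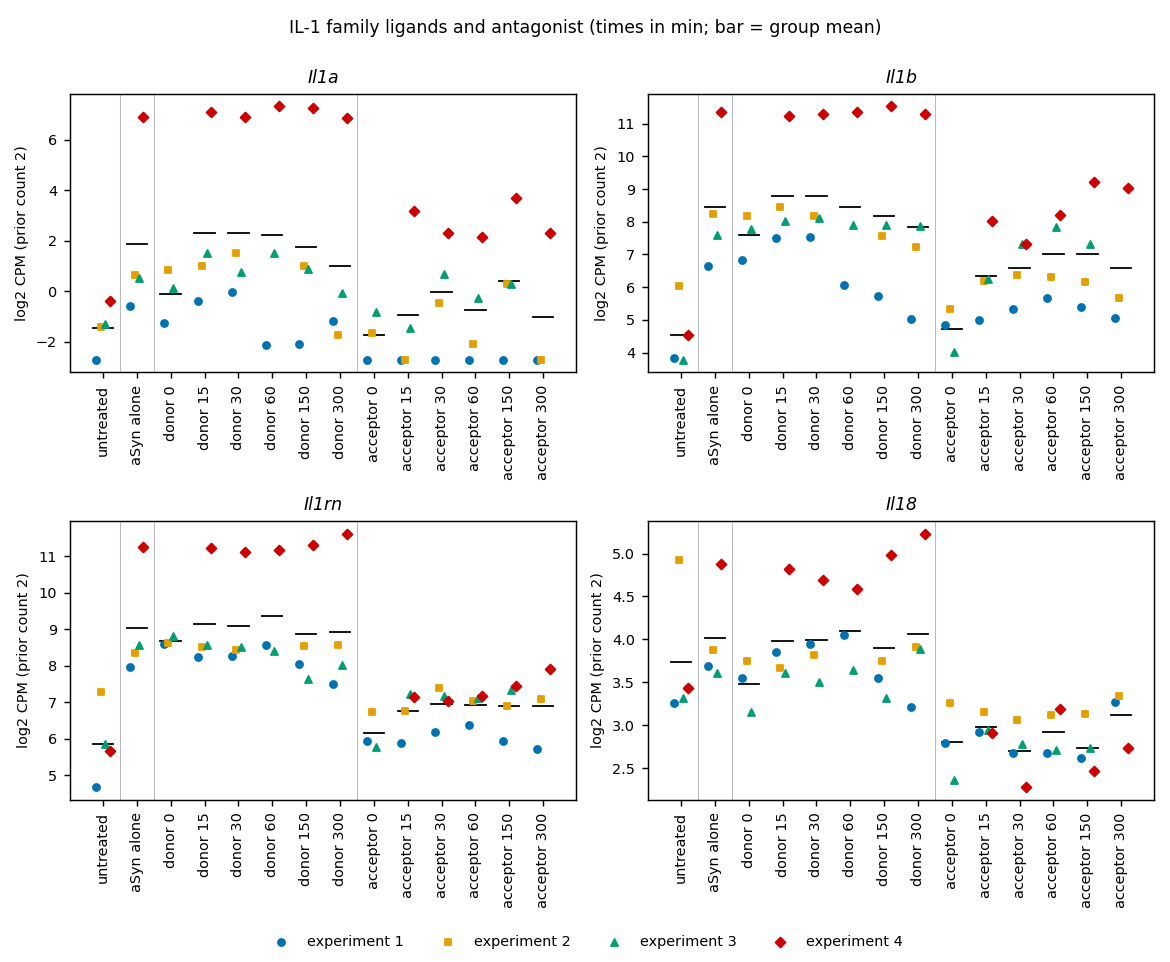
Level of Il1a, Il1b, Il1rn and Il18 in all 14 groups, as log2 CPM with a prior count of 2 on the y axis, 1 point per experiment and a bar at the group mean. Points of experiment 4 sit above the other 3 in every group given aSyn that holds this experiment, for all 4 genes, for instance at 2619 against at most 301 CPM for Il1b with aSyn alone.

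Of the inflammasome members, Casp4 was at 33.8, 66.1, 53.1 and 16.4 CPM in untreated cells and at 94.8, 97.2, 89.9 and 111.5 CPM with aSyn. The values with aSyn lay close together and all above the untreated ones. The rise in log2 CPM was 1.22 (SE 0.25, edgeR adjusted p 0.00353), 0.89 without experiment 4 (edgeR adjusted p 0.00172), and without experiment 1 it did not pass (edgeR adjusted p 0.0827).

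Nlrp3, the sensor, was at 19.8, 16.5, 21.0 and 11.9 CPM in untreated cells and at 28.2, 27.1, 36.5 and 37.4 CPM with aSyn. The groups did not overlap, and the log2 difference was 0.91 (SE 0.34, edgeR adjusted p 0.152). Casp1 was at 135, 192, 148 and 103 CPM without and 181, 199, 174 and 249.5 CPM with aSyn, higher in 4 of 4 experiments with overlapping groups (log2 0.48, SE 0.17, edgeR adjusted p 0.115, and 0.23 without experiment 4). Its spread between experiments was wider than the difference in experiments 2 and 3.

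Pycard was the member with lower values, at 68.1, 54.9, 79.1 and 80.2 CPM in untreated cells against 62.8, 46.1, 51.9 and 22.7 CPM with aSyn. The gap was widest in experiment 4 and the log2 difference -0.62 (SE 0.25, edgeR adjusted p 0.188), or -0.32 without experiment 4. Gsdmd was at 56.8, 142, 74.05 and 38.5 CPM without and 91.1, 130.4, 93.4 and 79.5 CPM with aSyn, higher in 3 of 4 experiments and lower in experiment 2 (log2 0.34, SE 0.32, edgeR adjusted p 0.636). Leaving out experiment 2 gave 0.67 for Gsdmd (edgeR adjusted p 0.266). Leaving out experiment 4 gave 0.22.

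Same-numbered units deviated together, so the comparison was also fitted with the replicate number as a block. That fit called 2524 genes, or 19.2% of those tested, and 8 of the 9 members. Il1a (edgeR adjusted p 1.55e-05), Il1b (1.66e-04), Il1rn (2.14e-04), Nlrp3 (0.028), Casp1 (0.0138), Casp4 (4.03e-04) and Gsdmd (0.0253) were higher and Pycard (0.0100) lower. With the block and without experiment 4, 5 members remained called by edgeR, all higher, which were Il1a (log2 2.95), Il1b (2.66), Il1rn (2.17), Nlrp3 (0.69) and Casp4 (0.90), beside 12.4% of 13079 genes. Pycard, Casp1 and Gsdmd were called with the block only while experiment 4 was included. The block fit took its spread from all 52 units, and the times of 1 experiment may share cells, so its p-values may be too small. This also applies to the block fits over separate libraries below. Fewer members were called when only aSyn alone and untreated cells were fitted. The same groups also differed in astrocyte markers, which summed to 11.3, 18.7, 77.6 and 138.5 CPM in the untreated cells of experiments 1 to 4 and to 13.9, 11.2, 16.7 and 29.3 CPM with aSyn. Of 8 such genes 0 were called without and 5 were lower with the block. The endothelium markers in the table, Pecam1 and Cdh5, summed to 0.428 to 1.39 CPM in untreated cells and 1.03 to 4.01 CPM with aSyn, and 1 of the 2 was called higher in both fits. S100a8, the 1 neutrophil marker in the table, was at 0 to 0.514 CPM in untreated cells and 0.284 to 6.72 CPM with aSyn (log2 3.26, not called in either fit). Of 10 microglia markers 0 were called without the block, and 1 was higher and 2 lower with it. No oligodendrocyte, neuron or fibroblast marker was called in either fit. The part of these markers in the result was not tested.

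**Figure D2:**
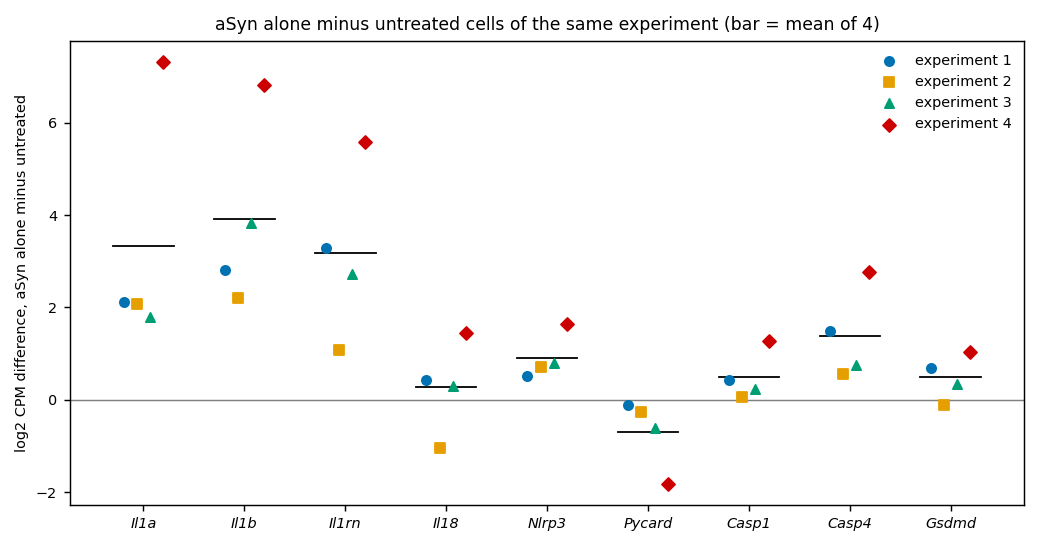
Log2 CPM with aSyn alone minus log2 CPM of untreated cells of the same experiment (y axis) for the 9 members (x axis), 1 point per experiment and a bar at the mean of 4. Il1a, Il1b, Il1rn, Nlrp3, Casp1 and Casp4 lie above 0 in 4 of 4 experiments and Pycard below 0 in 4 of 4, with experiment 4 farthest from 0 for each of these.

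Other genes of the pathway were read from lists chosen by function. Of 22 genes for IL-1 receptors and signalling, 19 could be tested and 0 were called by edgeR in aSyn alone against untreated cells, while 5 were higher and 1 lower with the block. Of all genes, 2.5% were called without and 19.2% with the block. Of 34 genes for inflammasome sensors, regulators and pyroptosis, 31 were in the table, 27 were tested and 3 were called, all higher. Their median log2 fold change was 0.13 in the first list and -0.09 in the second. Ninj1, whose product ruptures the membrane of dying cells, was at 151, 196, 146 and 128 CPM without and 283, 328, 353 and 423 CPM with aSyn (log2 1.16, SE 0.26, edgeR adjusted p 0.00688). Naip2, a sensor of bacterial secretion proteins, was at 34.0, 48.0, 30.8 and 23.0 CPM without and 55.0, 80.6, 83.1 and 65.3 CPM with aSyn (log2 1.06, SE 0.22, edgeR adjusted p 0.00381). Both genes showed no overlap between the groups. Mefv, which encodes the sensor pyrin, was listed at 0 to 0.174 CPM in untreated cells and at 0.636 to 1.21 CPM with aSyn, near the detection limit (edgeR adjusted p 0.0450).

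The second comparison asks whether mixing with acceptors and sorting changed the members in cells that had taken aSyn. Donors at each time were compared with cells given aSyn alone, and the 6 comparisons share those control samples. In the edgeR fit 0 of 9 members were called at any of the 6 times, and 0% of genes were called from 0 to 150 min and 0.0304% at 300 min. Before adjustment, 0 members had p under 0.05 from 0 to 150 min and 1 at 300 min, against 2.61%, 1.02%, 1.06%, 2.1%, 0.904% and 2.78% of all genes at the 6 times. With the block the count was 0 at all times, as it was with DESeq2.

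Among donors, experiment 4 again stood apart for the ligands and the antagonist. Il1b in donors of experiment 4 was at 2390.5, 2510.2, 2627, 2949.7 and 2521 CPM at 15, 30, 60, 150 and 300 min. In experiments 1 to 3 it was between 32.2 and 352 CPM. In experiment 1 the values were 182, 185, 67.2, 53.1 and 32.2 CPM at the same times, lowest at the last. Il1rn in donors was between 2214 and 3131 CPM in experiment 4 and between 180 and 449 CPM in the others. Il1a was between 117 and 159 CPM in experiment 4 and at most 2.73 CPM elsewhere. For these 3 genes experiment 4 did not overlap the other donors, as was also the case for Il18 and Casp1. The share of all genes that set experiment 4 apart in this way was not counted.

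Il18 in donors was between 23.9 and 37.4 CPM in experiment 4 and between 8.77 and 16.4 CPM in the others. Casp4 in donors ranged from 66.1 to 99.0 CPM in experiments 1 to 3 and from 96.4 to 122 CPM in experiment 4. Casp1 in donors ranged from 139.8 to 213 CPM in experiments 1 to 3 and from 217.6 to 243.5 CPM in experiment 4. Gsdmd ran the other way, with 61.1 to 86.3 CPM in experiment 4 and 84.7 to 134.5 CPM in experiments 1 to 3.

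**Figure D3:**
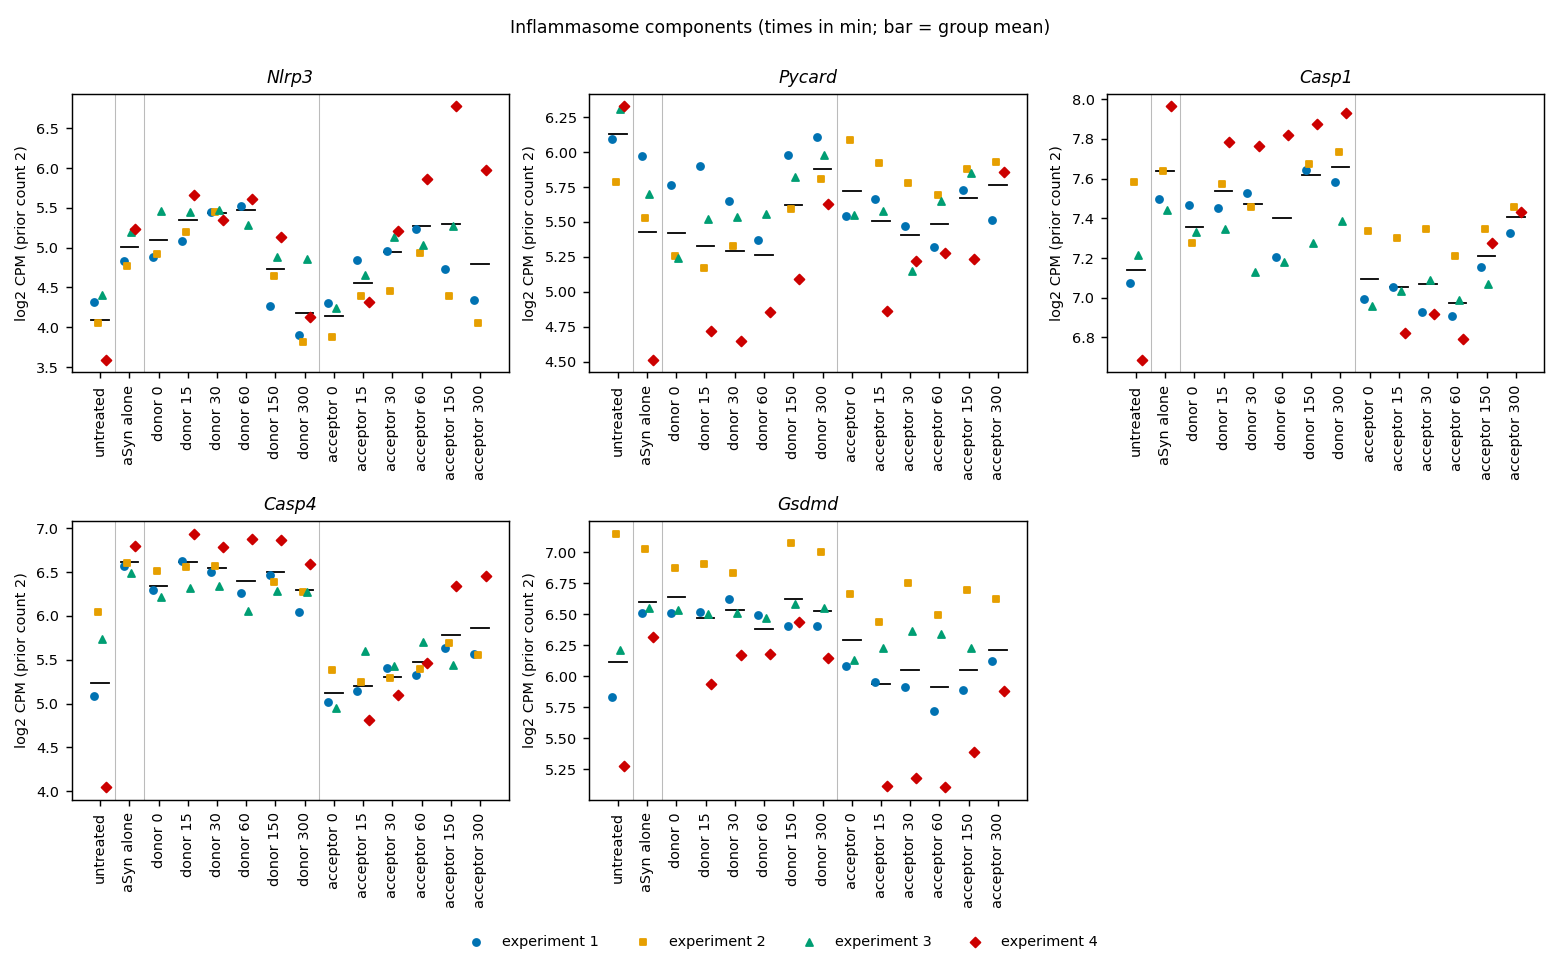
Level of Nlrp3, Pycard, Casp1, Casp4 and Gsdmd in all 14 groups, as log2 CPM with a prior count of 2 on the y axis, 1 point per experiment and a bar at the group mean. Casp4 means of the groups given aSyn, 79.1 to 98.8 CPM, lie above those of all groups that were not, 34.8 to 60.5 CPM, and Nlrp3 in donors is lower at 150 and 300 min than at 30 min in all 4 experiments.

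The third comparison asks whether acceptors, which had received no aSyn, differed in co-culture from untreated cells. Acceptors also received the dye and were sorted, and the part of each of these was not tested. The 6 comparisons share the untreated cells. In the edgeR fit 0 of 9 members were called at any time, beside 0%, 0%, 0.114%, 0.0683%, 0.137% and 0% of genes at 0, 15, 30, 60, 150 and 300 min. Before adjustment, 1, 2, 3, 3, 3 and 2 members had p under 0.05, against 5.69%, 6.37%, 7.34%, 7.62%, 8.22% and 5.47% of all genes. DESeq2 called 1 member, Nlrp3 at 150 min.

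Nlrp3 in acceptors was at 26.5, 20.9, 38.4 and 109 CPM at 150 min in experiments 1 to 4, against 19.8, 16.5, 21.0 and 11.9 CPM in untreated cells. It was higher in 4 of 4 experiments, although the groups overlapped, and the highest value again belonged to experiment 4. The log2 difference was 1.50 (SE 0.35, edgeR adjusted p 0.0593; DESeq2 adjusted p 0.00649). Without experiment 4 it was 0.59 (SE 0.23, edgeR adjusted p 0.390).

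Il1b in acceptors at 150 min was at 41.9, 71.3, 159 and 591 CPM, higher than in the untreated cells of the same experiment in 4 of 4 cases (log2 2.89, SE 1.28, edgeR adjusted p 0.525, and 1.53 without experiment 4). At 0 min it was at 28.8, 40.3 and 15.97 CPM in experiments 1, 2 and 3, higher in 2 of 3. Il1a was at 0 counts in acceptors of experiment 1 at all 6 times and reached 12.7 CPM in experiment 4 at 150 min. Il18 was lower than in untreated cells in 4 of 4 experiments at 15, 30, 60 and 150 min, with 5.96, 8.61, 6.51 and 5.37 CPM at 150 min against 9.39, 30.3, 9.77 and 10.7 CPM. At these 4 times the groups did not overlap (log2 -0.96 to -1.23, lowest edgeR adjusted p 0.263), a pattern that 3.54%, 3.55%, 4.15% and 4.56% of genes showed in either direction. Without experiment 2, whose untreated cells had the 30.3 CPM, the Il18 differences were -0.41, -0.74, -0.46 and -0.73 at these times. The lower Il18 level was not confined to these times. At 0 min it was at 4.98 to 9.42 CPM in experiments 1, 2 and 3 (DESeq2 log2 -1.11, and edgeR log2 -0.76 without experiment 2).

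With the replicate block, 8 of the 54 member tests passed in edgeR. Il18 (log2 -1.16, adjusted p 0.0315) and Pycard (-0.76, 0.0248) were lower at 30 min. At 60 min Il1b (2.03, 0.0391) and Nlrp3 (1.14, 0.0156) were higher and Pycard (-0.68, 0.0384) lower. At 150 min Il1a (4.32, 0.0119) and Nlrp3 (1.33, 0.00420) were higher and Il18 (-1.13, 0.0303) lower. The same fit called 3.6%, 4% and 4.78% of all genes at these times. Il1a at 150 min was near the detection limit, with a median of 1.07 CPM and a highest value of 12.7 CPM, that of experiment 4. Untreated cells reached at most 0.603 CPM. The Nlrp3 difference at 150 min was smaller without experiment 4, as given above for the fit without the block.

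The fourth comparison sets donors against acceptors sorted from the same co-culture. Donors carried more Il1rn, Il1a, Casp4 and Gsdmd RNA than the matched acceptors in 21 of 21 pairs of the same experiment and time. Il1b, Il18 and Casp1 were higher in 20 of 21 pairs, Nlrp3 in 14 and Pycard in 7. Pairs of 1 experiment may share cells and are not independent. Outside experiment 4, Il1a was at most 2.73 CPM in donors and 1.45 CPM in acceptors, so its differences there rest on few counts. How many of all genes were higher in every pair was not counted. The median log2 difference over the pairs was 2.07 for Il1rn, 1.98 for Il1a, 1.98 for Il1b, 0.93 for Casp4, 0.80 for Il18, 0.40 for Gsdmd and 0.33 for Casp1.

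At single times, edgeR called 2 of 54 member tests, both Casp4. Casp4 at 15 min was at 99.0, 94.2, 79.6 and 122 CPM in the donors of experiments 1 to 4 and at 35.2, 37.9, 48.3 and 27.8 CPM in the acceptors. No donor value fell within the acceptor range, and the share of all genes with such a gap is not given here. The log2 difference was 1.40 (SE 0.25, edgeR adjusted p 0.00139), in a comparison that called 0.888% of genes. At 30 min Casp4 was at 90.8, 94.8, 80.9 and 110.0 CPM in donors and 42.4, 39.0, 43.0 and 34.0 CPM in acceptors (log2 1.25, SE 0.25, edgeR adjusted p 0.00558, with 0.805% of genes called). The difference in Casp4 was 1.23 at 0 min, 0.96 at 60 min, 0.70 at 150 min and 0.39 at 300 min, with edgeR adjusted p 0.0512, 0.105, 0.330 and 0.903, and 0.251%, 0.418%, 0.167% and 0.0304% of genes called. The 300 min value was 0.25 without experiment 2 and 0.64 without experiment 4. From 150 min on the groups overlapped, with acceptors of experiment 4 at 81.1 CPM at 150 min and 87.4 CPM at 300 min. The change of the Casp4 difference over the times was not called in the edgeR F test. Without experiment 1, Casp4 passed at no time (15 min, edgeR adjusted p 0.0766, 30 min, 0.117).

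With the replicate block, edgeR called 28 of the 54 member tests, all higher in donors. The counts were 3, 7, 6, 6, 4 and 2 of 9 members at 0, 15, 30, 60, 150 and 300 min, where 4.28%, 9.57%, 10.8%, 6.7%, 5.19% and 1.38% of all genes were called. Il1rn passed at all 6 times, Il1a at 5, Casp4, Il18 and Gsdmd at 4, Il1b at 3 and Casp1 at 2. Nlrp3 and Pycard passed at none. As with aSyn alone, these p-values may be too small.

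The times of 1 experiment may share cells, so the libraries of each experiment were summed to 1 donor and 1 acceptor sum. The sums took the times that both populations had, which were 6, 5, 5 and 5 in experiments 1 to 4. They were compared over the 4 experiments with a block. Casp4 alone of the 9 members was called in that fit (log2 0.97, SE 0.07, edgeR adjusted p 0.0106), which called 161 of 13386 genes, or 1.2%. The other differences were 2.86 for Il1a (edgeR adjusted p 0.0908), 2.23 for Il1rn (0.0731), 1.79 for Il1b (0.0587), 1.11 for Il18 (0.106), 0.49 for Gsdmd (0.0969), 0.41 for Casp1 (0.131), 0.15 for Nlrp3 (0.670; 0.39 without experiment 4) and -0.12 for Pycard (0.608; -0.070 without experiment 4). Without experiment 4, edgeR called 4 members, Casp4 (0.95, adjusted p 0.00462), Il1rn (1.70, 0.00601), Il1b (1.45, 0.0138) and Il18 (0.75, 0.0225), and 5.17% of genes. A fit that takes every time as a separate library called 7 members, all but Nlrp3 and Pycard, and 25.6% of genes (edgeR), and its p-values are too small for that reason.

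The mean log2 difference by experiment was similar for Casp4, at 1.02, 1.03, 0.82 and 1.18 in experiments 1 to 4. These means cover 6, 5, 5 and 5 times. Within experiment 4 the Casp4 difference ran from 0.14 to 2.13, the lowest and highest of all its pairs. For Il1rn it was 2.18, 1.56, 1.46 and 3.94 and for Il1b 1.23, 1.98, 1.39 and 2.98. Il1a showed 1.54, 1.97, 1.29 and 4.37. For Il1a, Il1b and Il1rn the mean of experiment 4 lay apart from the other 3, and for Casp4 the mean did not. Il18 differed by 0.87, 0.59, 0.74 and 2.15, Casp1 by 0.42, 0.19, 0.23 and 0.79, and Gsdmd by 0.55, 0.30, 0.26 and 0.84.

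**Figure D4:**
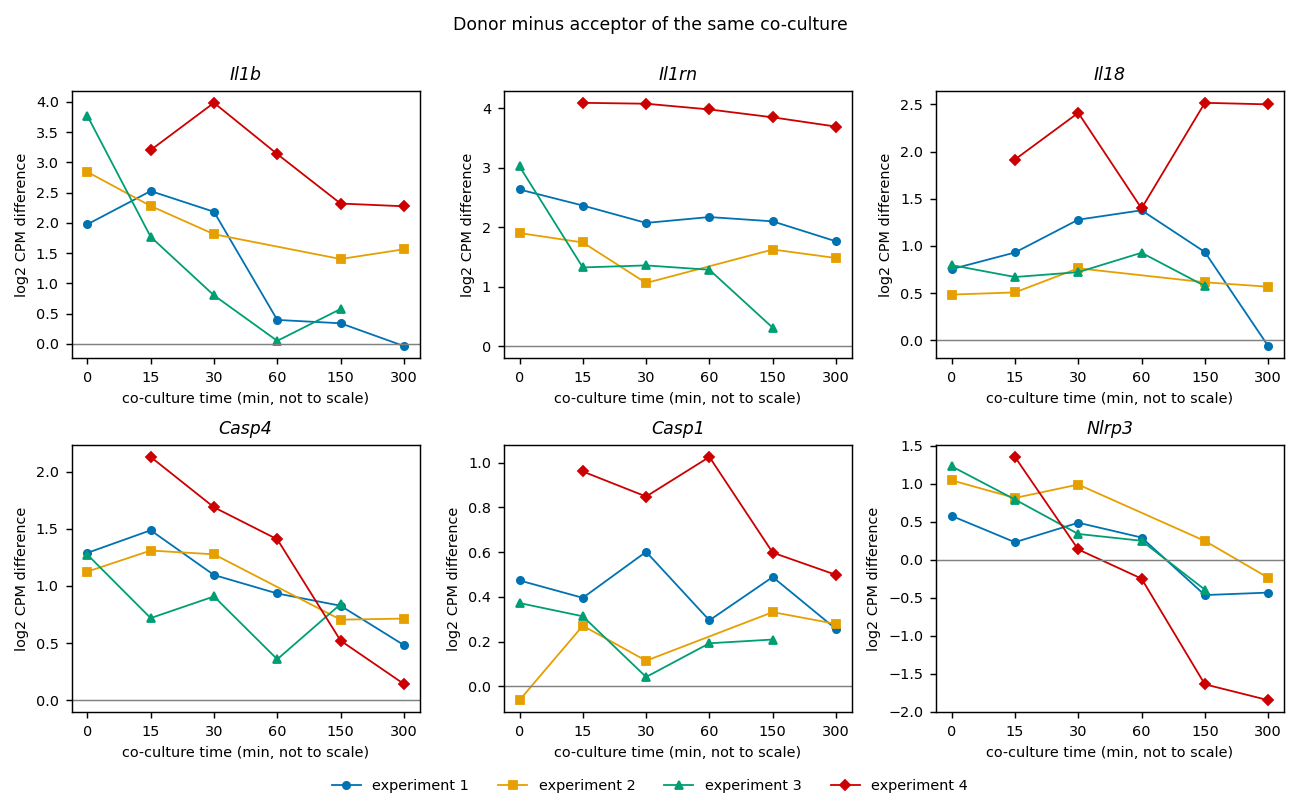
Log2 CPM of donors minus acceptors of the same experiment (y axis) against co-culture time in min (x axis, evenly spaced) for 6 members, 1 line per experiment, with the line at 0 marking equal levels. Casp4 and Il1rn stay above 0 at every time, while Nlrp3 goes from above 0 at 15 min in all 4 experiments to below 0 at 300 min in the 3 experiments measured.

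Of the genes for IL-1 receptors and signalling, the fit over separate times called 4 of 19 higher and 2 lower in donors, where 25.6% of all genes were called. The receptor chains Il18rap (log2 -2.23) and Il1rl1 (-1.88), the latter the receptor of IL-33, were lower. Irak3 (1.20), an inhibitory kinase of the pathway, the IL-18 binding protein gene Il18bp (1.01), the adaptor Myd88 (0.40) and Irak2 (0.29), of the receptor's signalling complex, were higher. In the fit over experiment sums 0 of 16 were called with all 4 experiments (1.2% of all genes), and Il18bp higher and Il1rl1 lower without experiment 4 (5.17% of all genes). Of 27 genes tested in the inflammasome list, 9 were higher and 4 lower over separate times, led by the guanylate-binding protein genes Gbp5 (2.04), Gbp3 (1.72) and Gbp2 (1.60), which are interferon-induced, then Mefv (1.20) and Naip2 (0.69). Fbxl2 (-1.76), Nlrp1b (-1.39), Nlrc3 (-0.30) and Nek7 (-0.19), a partner of NLRP3, were lower. Over experiment sums 0 of 28 were called, and without experiment 4 Gbp2, Naip2, Ninj1 and Panx1, all higher (edgeR). In that comparison 0 of 8 astrocyte markers were called over separate times, and 1 was lower with the block. S100a8 was called higher in donors in both fits (log2 2.16, and 1.42 with the block), at up to 8.46 CPM in donors and up to 1.18 CPM in acceptors. Its medians in the donor groups were 0.320 to 0.955 CPM. Both fits take every time as a separate library, so their p-values are too small. Of the 2 endothelium markers 1 was higher in both fits, with sums of up to 3.45 CPM in donors and 1.74 CPM in acceptors. Of 10 microglia markers 1 was higher and 1 lower, and with the block 4 and 3, while 1 of 3 neuron markers was lower with the block. The part of these markers in the result was not tested.

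The last comparison is the course over time within each population. In the edgeR F tests 0 of 9 members were called over the donor times (0.0607% of genes called), over the acceptor times (0.00759%), or for a change of the donor minus acceptor difference (0%). Nlrp3 had unadjusted p-values of 0.00854, 0.00469 and 0.00136 in these tests, each with an edgeR adjusted p of 1, and without experiment 4 it was called over the donor times (edgeR adjusted p 0.0472). Before adjustment 1, 2 and 1 members had p under 0.05 in the 3 tests, beside 1.88%, 1.86% and 0.858% of all genes.

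Nlrp3 in donors of experiments 1 to 4 was at 33.6, 36.6, 43.4 and 50.7 CPM at 15 min and at 43.6, 43.4, 44.3 and 40.6 CPM at 30 min. At 150 min it was at 19.2, 24.8, 29.2 and 35.0 CPM and at 300 min at 14.9, 13.9, 28.7 and 17.4 CPM. The 15 and 300 min groups did not overlap, as for 2.29% of all genes, and the values at 300 min lay within the 11.9 to 21.0 CPM of untreated cells except in experiment 3. From 15 to 300 min the log2 change was -1.14 (SE 0.35, edgeR adjusted p 0.499, lower in 4 of 4 experiments), in a comparison that called 0 members and 0.0759% of genes, with unadjusted p under 0.05 for 1 member and 3.81% of genes. With the replicate block it passed (edgeR adjusted p 0.0390, with 0.744% of genes called). Against aSyn alone, Nlrp3 in donors at 300 min was lower in 4 of 4 experiments (log2 -0.79, SE 0.34, edgeR adjusted p 1).

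Nlrp3 in acceptors was highest at 60 min in experiments 1 and 2 and at 150 min in experiments 3 and 4. It was at 28.6, 37.5, 26.5 and 20.1 CPM at 15, 60, 150 and 300 min in experiment 1, at 20.8, 30.5, 20.9 and 16.4 CPM in experiment 2, and at 19.7, 58.0, 109 and 62.9 CPM in experiment 4. Nlrp3 in donors exceeded the acceptors in 4 of 4 experiments at 15 min and in 0 of 3 at 300 min. The acceptor change from 15 to 300 min in log2 CPM was 0.50 (SE 0.37, edgeR adjusted p 1) and turned to -0.43 without experiment 4. In that comparison edgeR called 0 members and 0% of genes, and 1 member and 2.17% of genes had an unadjusted p under 0.05.

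Ranked by mean CPM, the 7 groups given aSyn held the 7 highest places of 14 for Il1rn, Casp4 and Gsdmd. Their means were 410 to 1001, 79.1 to 98.8 and 83.6 to 100.3 CPM, against at most 143, 60.5 and 79.7 CPM in the other 7. For Gsdmd the closest means were 83.6 ± 9.87 CPM (SD, n = 3) in donors at 60 min and 79.7 ± 18.8 CPM (n = 3) in acceptors at 0 min. How many of all genes show such an order was not counted. For Il1b the order ran from 978 ± 1431 CPM (SD, n = 3) in donors at 60 min through 804 ± 1213 CPM (n = 4) with aSyn alone to 216 ± 254.8 CPM (n = 4) in acceptors at 150 min, 208 ± 88.6 CPM (n = 3) in donors at 0 min, 29.1 ± 24.6 CPM (n = 4) in untreated cells and 28.3 ± 12.2 CPM (n = 3) in acceptors at 0 min. Neighbours among all 14 groups in that order differed by less than the larger SD of the pair, and both 0 min groups lack experiment 4. Donors at 60 min lack experiment 2, so experiment 4 weighs more in their means, for Il1b and for the 1001 CPM of Il1rn. By median, Il1b in donors at 60 min lay below donors at 15 and 30 min. Within experiment 4, Il1b was higher in donors at 150 min than at 60 min. Nlrp3 stood highest in acceptors at 150 min, with 48.8 ± 41.1 CPM (SD, n = 4), followed by donors at 60, 30 and 15 min with 44.6 ± 5.11 (n = 3), 43.0 ± 1.63 (n = 4) and 41.1 ± 7.59 CPM (n = 4). The first place rests on experiment 4, at 109 CPM, and the other 3 experiments, at 26.5, 20.9 and 38.4 CPM, each lay below those donor means. Pycard was highest in untreated cells, at 70.6 ± 11.8 CPM (SD, n = 4), and lowest in donors at 60 min, at 39.0 ± 9.31 CPM (n = 3).

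Across the 52 units, with the mean of each experiment subtracted, Il1b followed Il1rn (Pearson r 0.89) and Il1a (0.86), and Casp1 followed Gsdmd (0.90) and Casp4 (0.85). Nlrp3 followed Il1b with 0.53 and Il18 with -0.05. Pycard ran against Il1b (-0.56) and Il1a (-0.53). The genes with the most similar course to Il1b were Rilpl2 and Clec4e (0.94 each), Acod1, Ccl5 and Ccl8 (0.92 each), and those most similar to Il1rn were Aoah (0.98), C3 (0.97), Ccl8, Itgal and Ccl5 (0.96 each). For Il18 they were Dbnl (0.91), Nod1, Gbp9 (0.90 each), Uba7 and Dhx58 (0.89 each). These correlations describe units that share experiments, groups and library scaling, and no test is attached to them.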

How the data were processed

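The 54 libraries of primary mouse microglia were made with a 3′ tag kit that primes at the poly(A) tail (QuantSeq forward), as stated in the labels. The authors deposited unnormalized counts by gene symbol, used here, and a table headed as DESeq2-normalized, not used here. STAR, Partek, DESeq2 and the build mm10 are named in the submitters' processing notes, and the counting settings are not given in the sources used here. Reads of 3′ ends make levels depend on the annotated transcript end, and the labels name no molecular identifiers.

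Groups came from the group label and experiments from the replicate number in the title. Experiments 1 to 4 had passage 3, 1, 2 and 2 in the labels. Same-numbered untreated libraries (numbers 2 and 4) differed by 12.09 and 10.29 chi-square per degree of freedom, against 24.2 to 288 for other pairs of untreated libraries, and were summed. Tests used edgeR 4.0.16 (R 4.3.3) with TMM scaling, filterByExpr with a minimum count of 10, a group-means design over 14 groups and the quasi-likelihood F test, with Benjamini-Hochberg adjustment over 13169 genes and a threshold of 0.05. Standard errors came from the fold change and its F statistic. CPM used TMM-scaled library sizes, and log2 CPM a prior count of 2.

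The replicate number pairs the samples: in 21 comparisons every same-numbered pair correlated across genes in its deviation from the group means, the lowest at 0.199, with means of 0.339 to 0.593. Alternatives were the replicate block, RLE scaling, no filter, only the groups compared, separate untreated libraries, Rn45s left out, each experiment left out and DESeq2 1.42.0. The block without experiment 4 and the sums per experiment were added after seeing the data. The 9 members and the pathway and marker lists were chosen with earlier results of these data known. All members are described, and of the pathway lists up to 5 called genes per direction and comparison, plus the genes called over experiment sums. The code was tested on simulated data.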

Additional observations from a re-analysis of the deposited data

Results flagged for a closer look

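In 23 of 90 gene and group combinations with 4 experiments, 1 experiment lay far from the other 3. Distance was the gap to the nearest value as a share of the group's range, and it was 0.839 or more in the flagged cases. A small gap in a narrow group can therefore be flagged. A rate of 1 in 20 groups would give 4.5 of 90. Whether that rate holds for CPM values that were not log-transformed was not tested, and the rate over all genes was not counted. The groups share experiments and are not independent. Experiment 4 was the highest value in 21 of the 23.

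For Il1a the value of experiment 4 was 120.3 CPM with aSyn alone and 138, 120.1, 153 and 117 CPM in donors at 15, 30, 150 and 300 min, where the next highest experiment had at most 2.71 CPM. In acceptors at 15, 60 and 150 min it was 8.79, 4.26 and 12.7 CPM, against at most 1.08 CPM. For Il1b it was 2619 CPM with aSyn alone and 2390.5, 2510.2, 2949.7 and 2521 CPM in donors at 15, 30, 150 and 300 min, against at most 352 CPM. For Il1rn it was 2461 CPM with aSyn alone and 2398, 2214, 2522 and 3131 CPM in donors at those times, against at most 383 CPM. For Il18 it was 29.2 CPM with aSyn alone and 28.1 and 31.5 CPM in donors at 15 and 150 min, against at most 14.6 CPM.

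Il18 also stood out in experiment 2, with 30.3 CPM in untreated cells against 10.7 CPM in the next, and with 8.77 CPM in acceptors at 15 min against 7.51 CPM. None of the 5 inflammasome members was flagged by this rule in any group of 4. Nlrp3 in acceptors at 150 min was not flagged, although experiment 4 was at 109 CPM and the others at 20.9 to 38.4 CPM.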

How the results depend on the processing

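The number of the 9 members called in aSyn alone against untreated cells was 2, and it was 8 with the replicate block, 5 with the block and without experiment 4, 4 with the untreated libraries kept separate, 3 with DESeq2 (Il1b in addition) and 0 when only the 2 groups were fitted. Leaving out 1 experiment gave 0 to 3, with 0 without experiment 1. For acceptors against untreated cells over 6 times the count was 0, and 8 with the block, 2 with separate untreated libraries and 1 with DESeq2. For donors against acceptors at single times it was 2, and 28 with the block, 5 with only the groups compared, 6 with DESeq2 and 0 to 7 without 1 experiment, with 0 without experiment 1. For donors against acceptors over all times it was 7 in the mean of 6 times over separate libraries. Of these, Gsdmd did not pass without experiment 1 or 3 (edgeR adjusted p 0.196 and 0.100) and passed without experiment 2 (0.00387). The count was 1 over sums per experiment with the block and 4 over such sums without experiment 4. For donors at 300 against 15 min it was 0, and 1 with the block. For donors over the times it was 0, and 0 to 1 without 1 experiment. The pairing by replicate number changed no other count. Over all genes, aSyn alone against untreated cells called 329, and 2524 with the block, 1620 with the block and without experiment 4, 603 with DESeq2, 618 with separate untreated libraries, 37 with only the groups compared and 73 to 301 without 1 experiment, lowest without experiment 3. Donors against acceptors called 3372 in the mean of 6 times and 5839 with the block, and 161 over sums per experiment. The block without experiment 4 and the sums were chosen after seeing the data. The cause was not tested for any of these shifts, beyond fewer units where an experiment or a group was left out. Il18 in aSyn alone against untreated cells changed sign, from 0.18 to -0.33 without experiment 4 and -0.25 with the block as well, with 0.89 at the other end when experiment 2 was left out. Pycard in the mean of 6 times was between -0.27 and 0.051 without 1 experiment, the latter without experiment 2. Of the other single-gene values 283 kept their direction and side of the threshold, 32 passed in addition and 21 no longer passed. Depth limits Il1a, whose untreated level rests on 0 to 16 counts. Separately, DESeq2 gave Il1a no p-value before or after adjustment, and the reason was not tested.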

Other observations

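The 2 untreated libraries of experiment 4 differed from each other in members of the family. Il1b was at 10.3 and 36.3 CPM, while Il1rn was at 63.7 and 36.5 CPM, so the library with more ligand RNA had less antagonist RNA. The 2 untreated libraries of experiment 2 had 55.4 and 73.98 CPM for Il1b and 158 and 153 CPM for Il1rn. No test is attached to these single libraries.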
